A study of Rickenella mellea with 14 samples.

Results

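In Rickenella mellea, 159 genes had their highest RNA level in the stipe of the mature fruiting body. They were chosen from the 15477 gene models of the deposited log2 RPKM matrix, out of 17139 gene models in all. RPKM is the number of reads of a gene scaled to its length and to the total of the library, here scaled between libraries by TMM. A gene was taken when its mean log2 RPKM over the 2 stipe libraries was at least 1 above the mean of each other group. In addition both stipe values had to lie at least 0.5 above every one of the 12 other values. The stipe mean was the highest of the 5 groups for 2977 genes, and 579 of these led every other group mean by at least 1. The stipe values chose the genes, so every level of the stipe relative to another group is given below as a description, with no test. Tests were made among the 4 other groups.

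The stipe is the stalk that lifts the spore-bearing cap into moving air. In well-studied mushrooms such as Coprinopsis cinerea, the stipe lengthens rapidly as the fruiting body matures, mainly because its hyphal cells elongate. Elongation requires that the cell wall, a mesh of chitin and glucans, is loosened and extended while the cells take up water. The cap carries the spore-forming tissue instead, and the vegetative mycelium feeds and spreads in the substrate. Product names are not paired with gene models in the files, so no function is given for any gene here, and genes are called by the number in their Ricmel1 identifier. Each model is given with its length only, with no position on a chromosome.

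Polyadenylated RNA of strain SZMC22713 was sequenced from vegetative mycelium grown on Fries agar (n = 3) and from fruiting bodies collected in the field. The field groups were primordia (n = 3), young fruiting bodies 5 to 15 mm tall (n = 3), and mature bodies with stipes 20 to 32 mm tall, divided into cap (n = 3) and stipe (n = 2). Primordium replicate 2 was a stage 1 primordium about 1 mm tall without a visible cap initial, and replicates 1 and 3 were stage 2 primordia 2 to 3 mm tall. The young fruiting bodies were not divided into cap and stipe. The mycelium libraries ran on another flow cell than all field libraries, so growth condition, flow cell and stage cannot be told apart wherever mycelium is compared. How many individuals stand behind the samples of a group is not in the labels, so p-values refer to the variation among these samples, which may be partly technical. Tissue identity could not be checked against marker genes, because no gene is named. In bulk tissue, fewer cells of a type and less RNA per cell cannot be told apart. Depth per library was between 13.6 and 54.6 times 1e6 reads, with the mycelium and primordium libraries the shallowest.

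The genes ranged from weak to very strong expression in the stipe. Their mean stipe level had a median of 18.5 RPKM and ran from 0.727 to 2287 RPKM, where the median of all genes of the matrix was 11.3 RPKM in the stipe. Elsewhere the median level of the 159 genes was 3.15 RPKM in mycelium, 3.15 in primordium, 5.29 in young fruiting body and 4.79 in cap. Each of these lay below the median of all genes in the same group, which was between 9.60 and 11.9 RPKM. In the stipe, 35 of the genes reached at least 100 RPKM, 73 lay between 10 and 100, and 51 lay under 10. Most were read deeply: 131 of the 159 had at least 100 reads in both stipe libraries, and the fewest reads of any of them in a stipe library was 9.

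The lead of the stipe over the second highest group was small for most of the set. The median lead was 1.49 on the log2 scale, 80 genes led by less than 1.5 and 30 led by at least 2. The second highest group was the young fruiting body for 72 genes, the primordium for 32, the cap for 32 and the mycelium for 23. The young fruiting body thus came second for 45.3% of the set, whereas it had the highest mean of the same 4 groups for 20.6% of all genes. Mycelium was the lowest group for 67 genes and primordium for another 67, which is 42.1% each. Among all genes the lowest of the 4 groups was mycelium for 29.9% and primordium for 42.2%. In RPKM, the young fruiting body stood at a median of 31.4% of the stipe level and the cap at 25.1%. The distance from the stipe was widest to the earliest stages: 47 genes were at least 16-fold higher in stipe than in mycelium and 43 than in primordium, against 19 for the cap and 7 for the young fruiting body.

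**Figure D1:**
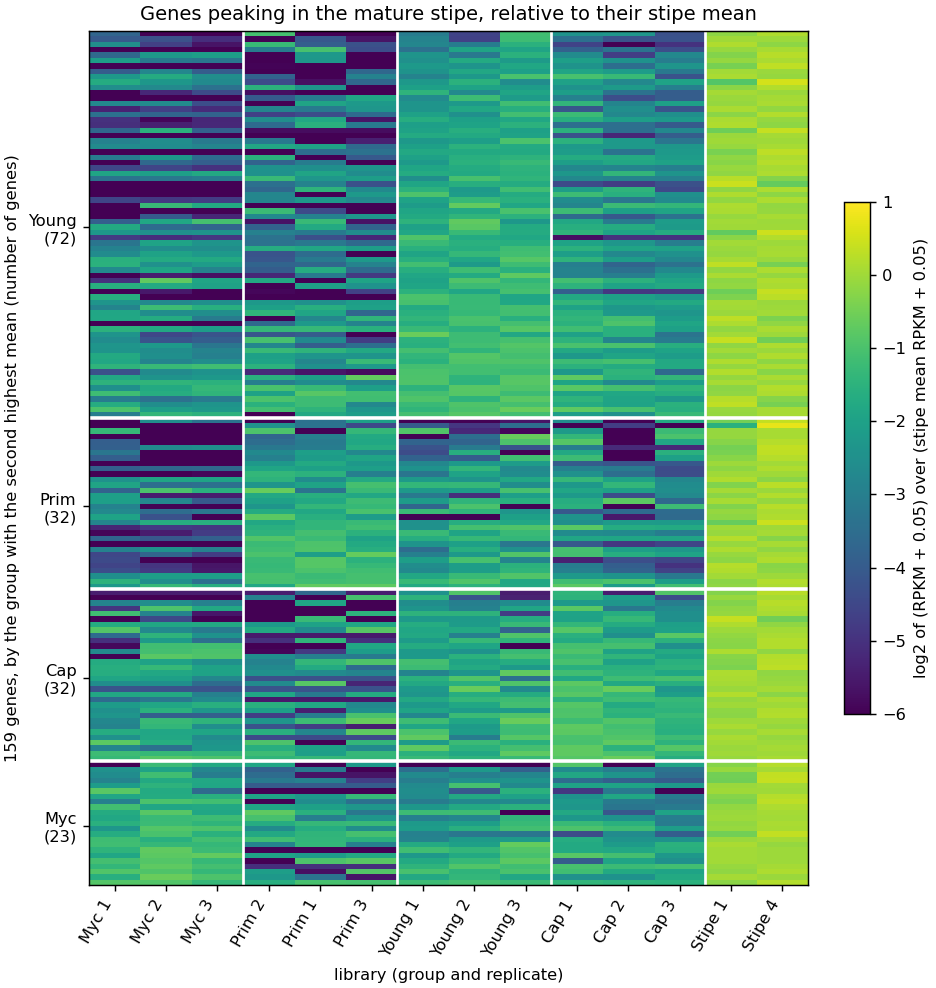
Heat map of the 159 genes (rows) in the 14 libraries (columns), coloured by the log2 ratio of RPKM to the gene's own stipe mean, with 0.05 added to both and values cut at -6 and 1. Rows are grouped by the group with the second highest mean (72, 32, 32 and 23 genes) and ordered by lead; dark cells in mycelium and primordium mark the lowest levels, and in cap replicate 2 most of the dark cells fall among the genes whose second highest group is the primordium.

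The classes by second highest group differed in overall level as well as in shape. The 32 genes with the primordium second had the highest typical stipe level, at a median of 51.2 RPKM, with 14.3 in primordium, 10.7 in young fruiting body, 6.91 in cap and 2.77 in mycelium. The 72 genes with the young fruiting body second had medians of 27.9 RPKM in stipe, 11.1 in young fruiting body, 6.11 in cap, 3.63 in primordium and 3.21 in mycelium. The 32 genes with the cap second were low, with medians of 7.98 RPKM in stipe and 3.33 in cap. The 23 genes with the mycelium second had medians of 12.4 RPKM in stipe and 4.33 in mycelium, with 2.09 to 3.15 in the 3 other groups. These classes were read off the same values and carry no test. They rest on mean log2 values, which a library without reads pulls down. Of the 32 genes with the primordium second, 7 had a group outside the stipe with both a library without reads and a clearly read one. Among them, gene model 466271 had 11.7, 8.93 and 28.2 RPKM in primordium replicates 1, 2 and 3, and 56.5, 0 and 27.9 in cap replicates 1, 2 and 3.

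**Figure D2:**
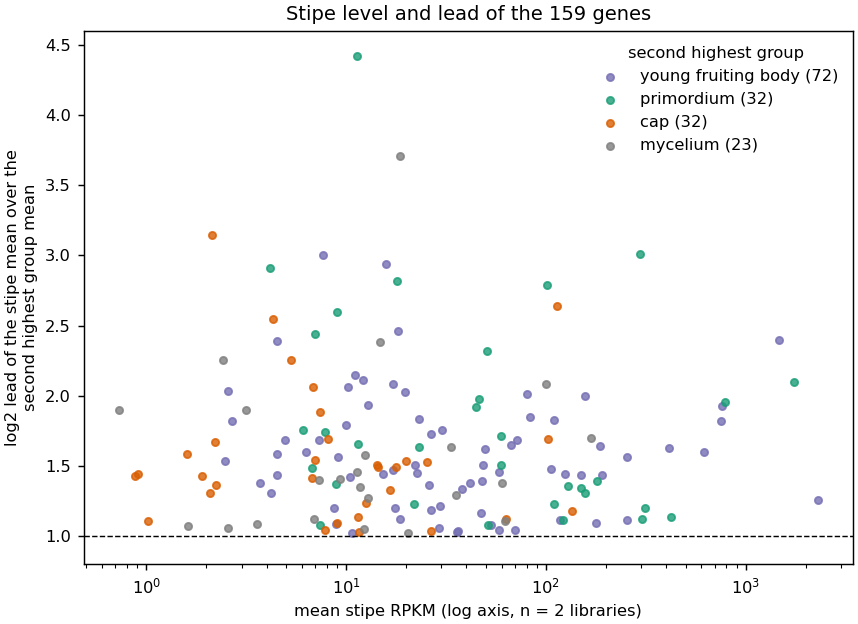
Mean stipe RPKM (log axis, 2 libraries) against the log2 lead of the stipe mean over the second highest group mean for the 159 genes, coloured by that group; the dashed line is the minimum lead of 1. The largest leads, 4.42 and 3.71, belong to genes with a mean of 11.3 and 18.6 RPKM in stipe, and the gene of highest stipe level, at 2287 RPKM, leads by 1.26.

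The 159 genes took up a small share of all reads outside the stipe. The mycelium libraries gave them 0.213% to 0.258% of reads. The share lay between 0.353% and 0.426% for primordia, between 0.614% and 0.970% for young fruiting bodies and between 0.426% and 0.660% for caps. In the stipe libraries it was 3.00% in replicate 1 and 2.76% in replicate 4. The 5 genes of highest stipe RPKM made up 1.47% and 1.32% of the reads of these 2 libraries. Without those 5, the remaining genes held 1.48% ± 0.0642 of stipe reads (SD, n = 2), 0.438% ± 0.0873 of young fruiting body reads (n = 3), 0.312% ± 0.0683 of cap reads, 0.232% ± 0.0385 of primordium reads and 0.213% ± 0.0232 of mycelium reads. Of the 100 genes with the highest stipe RPKM, 3 belonged to the set, which holds 1.03% of all genes of the matrix.

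**Figure D3:**
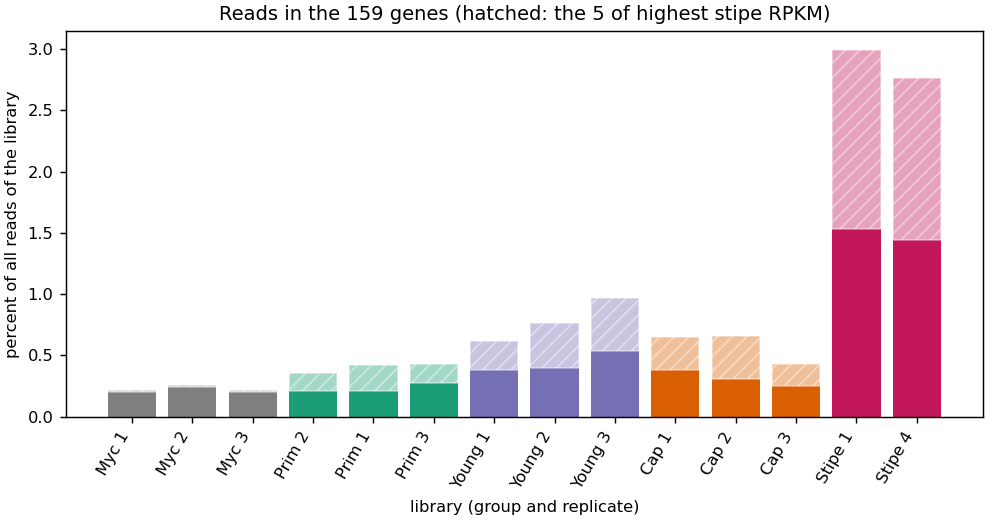
Percent of all reads of each library that fell in the 159 genes, with the 5 genes of highest stipe RPKM hatched. The 2 stipe libraries stand at 3.00% and 2.76%, and no other library is above 0.970%.

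Gene model 784682 had the highest stipe level. Its RPKM was 26.8, 19.3 and 25.2 in the mycelium libraries (replicates 1, 2 and 3, in this order below), 484, 191 and 313 in primordia, 729.7, 1108 and 1066 in young fruiting bodies, 801, 1175 and 614 in caps, and 2510.3 and 2063 in stipe replicates 1 and 4. Every primordium library was above every mycelium library, young fruiting bodies and caps overlapped, and the stipe stood above all of them. Gene model 822416 followed with 1702 and 1772 RPKM in stipe. It had 2.37, 3.79 and 3.30 RPKM in mycelium, 513, 360.3 and 359 in primordia, 257, 367 and 398 in young fruiting bodies and 110.6, 96.5 and 103 in caps. This gene was already abundant in primordia and young fruiting bodies, whose libraries overlapped, and was lower in every cap library than in any of those.

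The genes of largest lead showed another pattern. Gene model 756379 led by 4.42 on the log2 scale, with 8.02 and 14.5 RPKM in stipe. It had no reads in mycelium replicate 1, primordium replicate 2, young fruiting body replicates 1 and 2 and cap replicate 2. Where it was read outside the stipe, it stood at 1.88 and 1.08 RPKM in mycelium, 1.06 and 2.72 in primordia, 0.181 in young fruiting body replicate 3 and 1.77 and 3.33 in caps. The libraries of each of these groups were thus split between no reads and some reads, so its group means lie below the level of the libraries in which it was read. Gene model 782845 led by 3.71, with 15.5 and 21.7 RPKM in stipe. It was without reads in mycelium replicate 1, primordium replicate 1, all young fruiting bodies and cap replicate 2, and stood at 3.999 to 10.1 RPKM in the other libraries outside the stipe.

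Such a split was common among the genes of largest lead. In 17 of the 159 genes, at least 1 group outside the stipe held a library with no read and another with at least 20 reads and 1 RPKM. That is 10.7% of the set, close to the 9.63% of all genes of the matrix that met the same criterion. Of the 10 genes with the largest lead, however, 8 were of this kind, and the median lead was 2.44 for the 17 genes and 1.45 for the others. Cap replicate 2 had no read for 8 of the 17, while cap replicates 1 and 3 had reads for all 17. Mycelium replicates 2 and 3 each lacked 9 of the 17 and mycelium replicate 1 lacked 5. The criterion and this list were set after the values were seen. When cap replicate 2 was left out, 170 genes met the rule, 157 of them among the 159.

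Genes close to the limits of the rule differed little across it. The 2 genes just inside were 522017, with a lead of 1.39 and a gap of 0.508 between the lower stipe value and the highest other value, and 842764, with a lead of 1.04 and a gap of 0.508. The 2 just outside were 867488, with a lead of 1.01 and a gap of 0.487, and 752692, with a lead of 1.06 and a gap of 0.486. Gene model 842764, inside, stood at 45.6 and 26.8 RPKM in stipe and reached 18.8 RPKM in young fruiting body replicate 2. Gene model 752692, outside, stood at 15.1 and 23.1 RPKM in stipe and reached 10.8 RPKM in cap replicate 1.

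The first comparison that the choice of genes did not use was that of primordium with mycelium. Of the 159 genes, 35 rose and 21 fell from mycelium to primordium, by edgeR's quasi-likelihood test at an adjusted p under 0.05 and at least a 2-fold change. These are 22.0% and 13.2% of the set, beside 20.1% and 23.6% of all 15559 genes tested. The share that rose was therefore near that of all genes, and the share that fell was lower. In this count 6 genes entered the test through their stipe reads alone. With the low-count filter set on the 12 other libraries, 153 genes remained, of which 35 rose and 18 fell, or 22.9% and 11.8%, beside 20.6% and 23.8% of all genes then tested. The median log2 change was 0.16 in the set and -0.15 over all genes, and 0.30 in the set when genes without reads in 1 of the groups were placed at their bound. Scaling by library size alone moved the median of all genes by -0.87 and turned the split of the set to 27 risen and 47 fallen, or 17.0% and 29.6%, beside 10.6% and 40.4% of all genes. A fit of these 2 groups alone tested 126 of the genes and called 29 risen and 5 fallen, or 23.0% and 3.97%, beside 19.2% and 18.9%. Growth condition and flow cell change together with stage here.

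The clearest rises started from a low level in culture. Gene model 822416, whose values in each library are given above, rose from 3.15 ± 0.72 to 411 ± 88.5 RPKM (SD, n = 3 in each), a change of 7.02 ± 0.35 in log2 (SE; edgeR adjusted p = 5.71e-07). Gene model 128465 stood at 1.33, 2.44 and 1.53 RPKM in mycelium and at 81.1, 67.2 and 46.3 RPKM in primordia, with no overlap. Its change in log2 was 5.19 ± 0.41 (edgeR adjusted p = 3.29e-06), and it reached 147 and 166 RPKM in the stipe. Of the 35 genes that rose, 4 had no read in any mycelium library, and among the other 31 there were 9 that rose at least 16-fold.

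Of the 21 genes that fell, 11 had under 10 RPKM in the stipe, beside 2125 of the 3678 that fell among all tested genes. In addition 9 of the 21 had no read in any primordium library, a count not made for all genes that fell. For 5 of these 9 the mycelium level lay under what 3 reads per library would give in primordia, so no fold is given. Gene model 833491 had 2.53, 4.19 and 2.92 RPKM in mycelium and no reads in primordia, at least 4.0-fold lower against a floor of 3 reads per library (edgeR adjusted p = 0.000158). It was read again in all young fruiting bodies (3.12, 2.60 and 3.72 RPKM) and caps (2.01, 1.95 and 2.27 RPKM), and stood at 7.08 and 6.82 RPKM in the stipe. Gene model 889494 showed the same shape at a lower level: 0.596, 0.948 and 0.734 RPKM in mycelium, no reads in primordia and 1.54 and 1.69 RPKM in stipe. It was at least 2.57-fold lower in primordia (edgeR adjusted p = 0.000397), and on log2(RPKM + 1) its change of -0.81 missed the 2-fold threshold. In all, 13 of the 159 genes had no read in any primordium library and 52 had none in at least 1 of the 3. The latter is 32.7% of the set beside 20.4% of all genes of the matrix. The primordium libraries hold 14.3 to 18.4 times 1e6 reads, fewer than any other field library. The mycelium libraries hold 13.6 to 16.5 times 1e6 reads. In at least 1 of them 12.6% of the set had no read, beside 7.37% of all genes. Whether depth accounts for the missing primordium reads was not tested.

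From primordium to young fruiting body, 36 of the 159 genes rose and 4 fell, which is 22.6% and 2.52% of the set. Over all tested genes 20.5% rose and 13.1% fell, so falls made up a smaller part of the set than of all genes. With the filter set without the stipe, 32 of 153 rose and 4 fell, or 20.9% and 2.61%, beside 20.8% and 13.5%, so the share that rose was close to that of all genes. The median log2 change was 0.77 in the set, or 0.67 with genes without reads placed at their bound, and 0.24 over all genes. These groups share a flow cell and were all collected in the field. This step and the previous one both use the primordium libraries. Library-size scaling, which moved the median of all genes by 0.54, gave 60 risen and 1 fallen, or 37.7% and 0.629%, beside 31.4% and 7.07% of all genes. A fit of these 2 groups alone gave 22 and 2 of the 144 genes it tested, or 15.3% and 1.39%, beside 14.2% and 11.8%. Of the 36 that rose, 11 had no read in any primordium library, and for 4 of these the young fruiting body level lay under the floor of 3 reads.

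Gene model 838871 rose most clearly at this step. It had 2.67, 3.4 and 0.912 RPKM in primordia and 229, 223 and 192 RPKM in young fruiting bodies, a change of 6.52 ± 0.52 in log2 (SE, n = 3 in each; edgeR adjusted p = 3.34e-05). In mycelium it stood at 11.8, 6.53 and 6.64 RPKM, above every primordium library, and in the stipe at 726 and 782 RPKM. Gene model 791852 rose from 3.69, 4.93 and 3.15 RPKM in primordia to 90.5, 82.0 and 75.9 RPKM in young fruiting bodies, a change of 4.40 ± 0.58 in log2 (edgeR adjusted p = 0.000169). Its cap libraries were spread between 14.8 and 67.1 RPKM, and its stipe libraries stood at 205 and 151 RPKM. Among the genes that fell, gene model 731459 went from 13.5, 15.9 and 12.4 RPKM to 4.77, 7.75 and 7.93 RPKM, a change of -1.03 ± 0.29 in log2 (edgeR adjusted p = 0.0147), and stood at 34.2 and 36.7 RPKM in the stipe. This call was lost without young fruiting body replicate 1 (-0.83, edgeR adjusted p = 0.0636), without primordium replicate 2 (-0.97, under 2-fold) and with library-size scaling (-0.47, edgeR adjusted p = 0.237). Gene model 756304 went from 4.31, 3.41 and 5.59 RPKM to 1.5, 1.22 and 1.18 RPKM, a change of -1.77 ± 0.51 in log2 (edgeR adjusted p = 0.0158). With library-size scaling its change was -1.26 (edgeR adjusted p = 0.0820).

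From young fruiting body to mature cap, 15 of the 159 genes fell and 0 rose, by edgeR's test. The fall covered 9.43% of the set, beside 1.77% of all tested genes, and 1.34% of all tested genes rose. At an unadjusted p under 0.05, 34 of the 159 genes were lower and 2 higher, or 21.4% and 1.26%, beside 11.8% and 7.35% of all tested genes. DESeq2 called 23 as lower and 1 as higher, or 14.5% and 0.629%, beside 3.24% and 3.97% of all tested genes. The median log2 change was -0.30 in the set and -0.02 over all genes. Counted without a test, the 3 cap libraries lay below the 3 young fruiting body libraries for 44 genes, or 27.7% of the set beside 14.6% of all genes of the matrix, and above them for 1 gene, beside 15% of all. The rule required the stipe to lead both groups alike, so it did not fix which of them was higher. The young samples hold stipe and cap together, so stage and tissue cannot be told apart here. The count was unstable: it was 5 without cap replicate 2, 8 without cap replicate 1, 8 without cap replicate 3 and 9 without young fruiting body replicate 3. The shares of all genes in these fits are not given here, so a loss of calls over all genes is not set apart from a change in the set. With library-size scaling the count was 7, or 4.40%, beside 0.765% of all genes. That scaling moved the median of all genes by 0.33 and that of the set to 0.05. When the stipe libraries were left out of the fit, the count was 9 of 153, or 5.88%, beside 1.13% of all genes then tested.

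Of the 15 genes that fell toward the cap, 12 had at least 100 RPKM in stipe, beside 118 of the 276 that fell among all tested genes. Few genes of low stipe level were called as falling: 6 of the 7162 tested genes under 10 RPKM. Gene model 828827 fell from 55.2, 32.3 and 29.7 RPKM in young fruiting bodies to 1.97, 3.25 and 3.30 RPKM in caps, a change of -3.78 ± 0.45 in log2 (SE, n = 3 in each; edgeR adjusted p = 0.00148). The cap libraries overlapped those of mycelium, at 3.82, 3.09 and 3.51 RPKM, while the stipe stood at 90.7 and 121 RPKM. Gene model 841180 fell from 112, 135 and 128 RPKM to 19.2, 15.4 and 21.5 RPKM, a change of -2.74 ± 0.38 in log2 (edgeR adjusted p = 0.00302). Its 2 stipe libraries differed, at 562 RPKM in replicate 1 and 265 in replicate 4. The rule itself required both to lie above every young fruiting body library.

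Between primordium and cap, 24 genes were higher in cap and 17 lower, or 15.1% and 10.7% of the set, beside 22.1% and 15.8% of all tested genes. Both shares were thus below those of all genes. With the filter set without the stipe, 20 of 153 were higher and 17 lower, or 13.1% and 11.1%, beside 22.3% and 16.1%. The median log2 difference was 0.44 in the set, or 0.34 with genes without reads at their bound, and 0.25 over all genes. The split depended on the processing: it was 57 higher and 6 lower with library-size scaling, which moved the median of all genes by 0.88, and the shares of 35.8% and 3.77% stood beside 40.9% and 6.99% of all genes. With each library's trend on gene length removed it was 19 higher and 22 lower, or 11.9% and 13.8%, beside 17.6% and 20.5%. Of the 24 that were higher in cap, 11 had no read in any primordium library.

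Gene model 838871, described above, was higher in caps, at 40.3, 20.1 and 48.8 RPKM, than in primordia, a log2 difference of 3.96 ± 0.47 (SE, n = 3 in each; edgeR adjusted p = 7.09e-05). Gene model 792772 stood at 0.382, 0.575 and 0.221 RPKM in primordia and 6.84, 5.28 and 3.93 RPKM in caps, a log2 difference of 3.76 ± 0.53 (edgeR adjusted p = 0.000191). It had 12.4 and 10.6 RPKM in stipe. Gene model 128465 was lower in caps, at 9.43, 5.31 and 6.66 RPKM, a log2 difference of -3.18 ± 0.37 (edgeR adjusted p = 6.59e-05). Its young fruiting bodies lay between, at 30.4, 38.4 and 16.8 RPKM. Gene model 822416 was also lower in caps, by a log2 difference of -1.99 ± 0.28 (edgeR adjusted p = 0.000193). For both, the stipe was the highest group and the primordium the second.

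**Figure D4:**
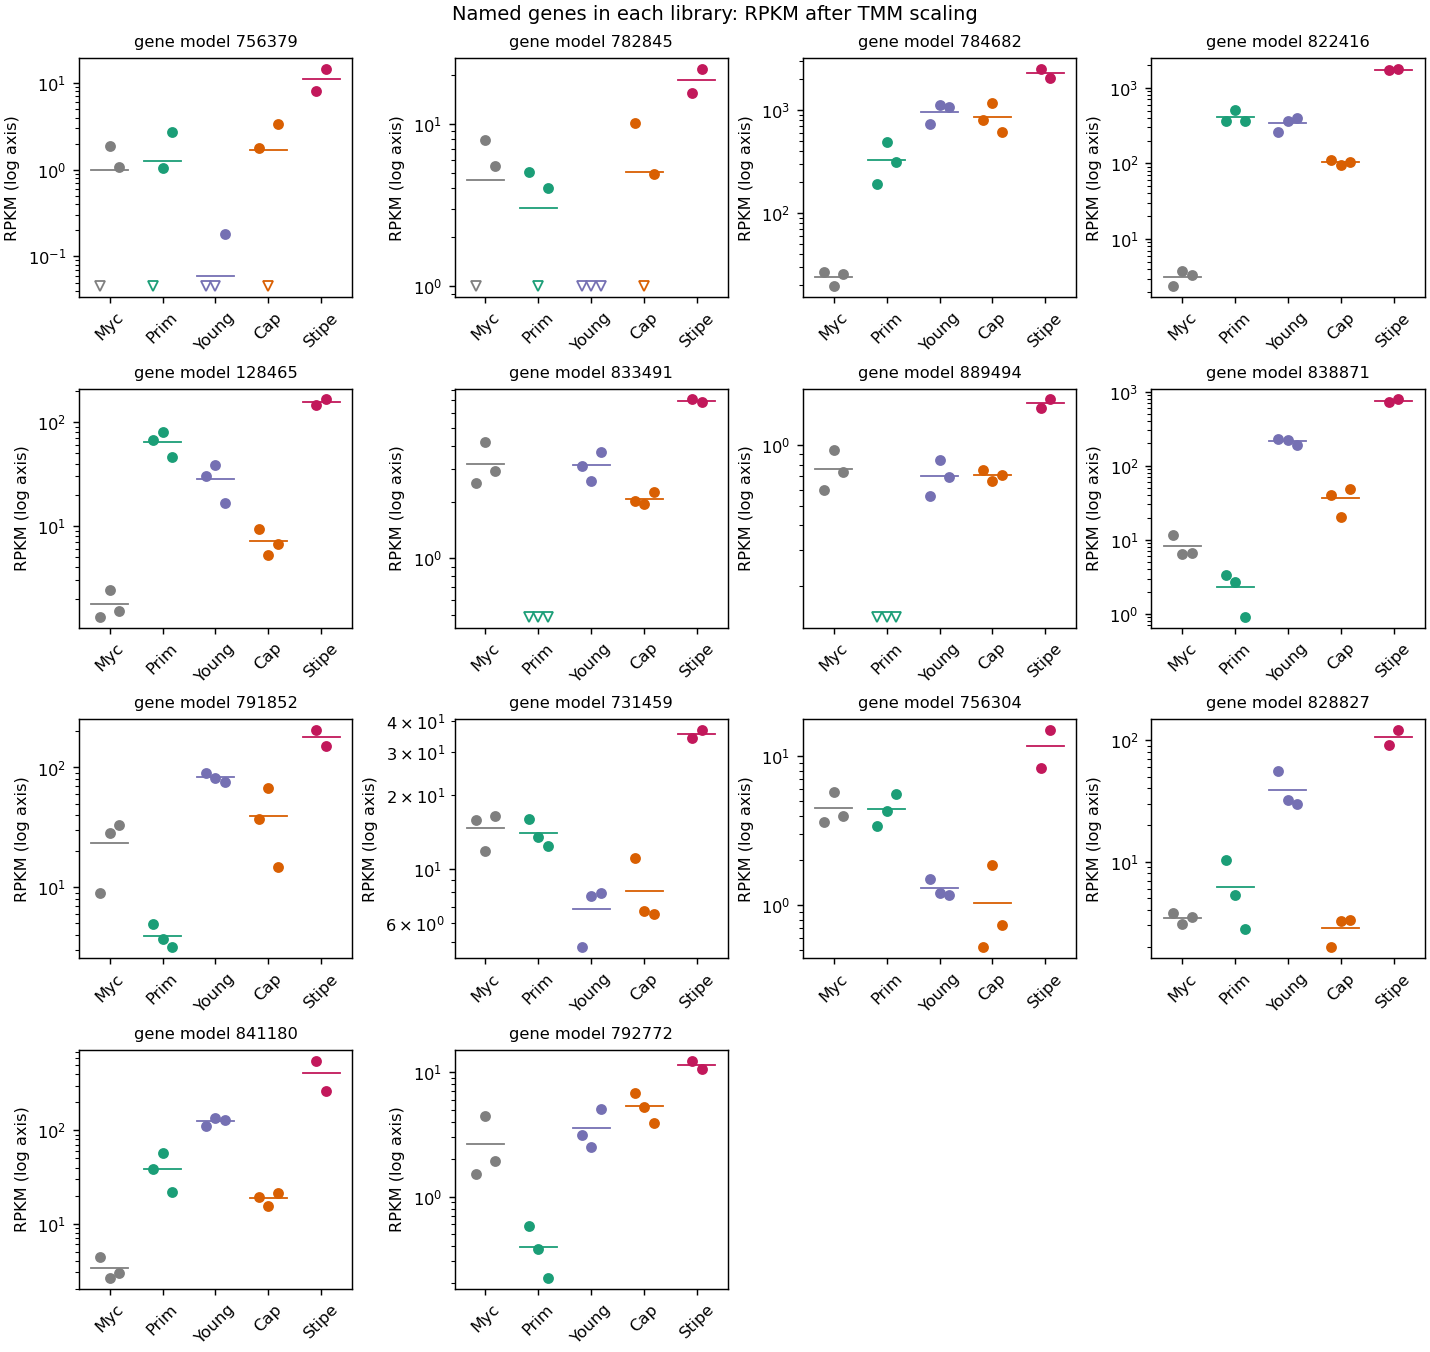
RPKM after TMM scaling (log axis, a separate scale in each panel) of the 14 genes named for lead, level or a call, in each of the 14 libraries by group. Points are libraries, horizontal lines group means, and open triangles at the foot of a panel libraries with no read; the stipe points are the highest in every panel, while the order of the other groups differs between genes.

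Mycelium was also set against the later groups. Relative to mycelium, 44 genes were higher in young fruiting bodies and 3 lower, or 27.7% and 1.89% of the set, beside 15.7% and 10.8% of all tested genes. The median log2 difference was 0.94 in the set, or 0.84 with genes without reads at their bound, and 0.17 over all genes. In caps, 32 genes were higher than in mycelium and 4 lower, or 20.1% and 2.52%, beside 14.3% and 11.1% of all tested genes. The median log2 difference was 0.59 in the set and 0.15 over all genes. These counts include the 6 genes that entered the test through their stipe reads alone. With the filter set without the stipe, 45 of 153 were higher in young fruiting bodies than in mycelium and 3 lower. These are 29.4% and 1.96%, beside 16.04% and 10.99% of all genes then tested. In caps, 31 of the 153 were then higher than in mycelium and 4 lower, or 20.3% and 2.61%, beside 14.56% and 11.25%. Among genes with reads in mycelium, 10 of those higher in young fruiting bodies and 4 of those higher in caps differed at least 16-fold. The set was thus called higher in these fruiting body samples more often, and lower less often, than all tested genes, with growth condition and flow cell differing as well. No test was made of whether these shares differ from those of all genes.

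**Figure D5:**
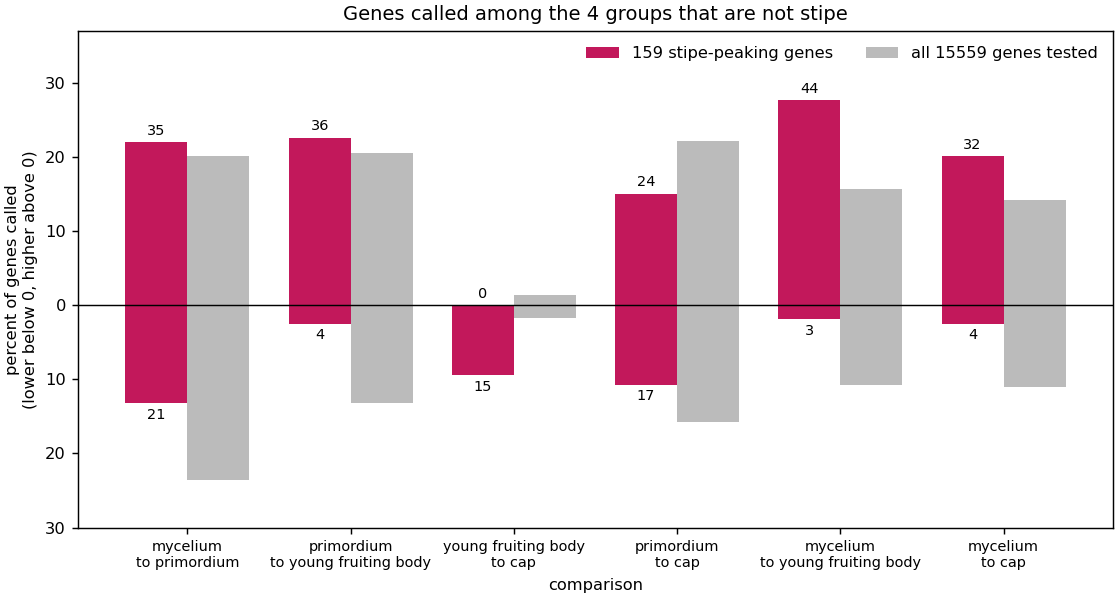
Percent of the 159 genes (magenta, with the number of genes) and of all 15559 genes tested (grey) called higher (above 0) or lower (below 0) in the later group of each comparison among the 4 groups that are not stipe. The largest number is the 44 genes higher in young fruiting body than in mycelium; 15 genes fell from young fruiting body to cap and 0 rose.

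The calls were also counted by stipe level, a division made after the values were seen. Of the 35 genes with at least 100 RPKM in stipe, 22 rose from mycelium to primordium and 4 fell, beside 52.2% and 11.3% of all tested genes at that stipe level. Against mycelium, 24 of the 35 were higher in young fruiting bodies and 0 lower, beside 44.5% and 5.29% of such genes. From young fruiting body to cap 12 of the 35 fell and 0 rose, beside 9.92% and 0.252%. Young fruiting bodies had 8 of the 35 higher than primordia and 1 lower, beside 21% and 29.2%. High stipe level alone therefore went with many of these calls among all genes, and the counts of the 35 genes are to be read beside those shares. Of the 73 genes between 10 and 100 RPKM in stipe, 10 rose and 6 fell from mycelium to primordium, or 13.7% and 8.22%, below the 26.5% and 19.9% of all tested genes of that level. Against mycelium, young fruiting bodies had 16 of these 73 higher and 3 lower, or 21.9% and 4.11%, beside 20.6% and 9.46%. Set against primordia, they had 15 higher and 3 lower, or 20.5% and 4.11%, beside 21.6% and 16.4%. In caps, 3 were lower than in young fruiting bodies and 0 higher, or 4.11% and 0%, beside 2.17% and 0.828%. Of the 51 genes under 10 RPKM in stipe, 3 rose and 11 fell from mycelium to primordium, beside 9.08% and 29.7% of all tested genes of that level, whereas young fruiting bodies had 13 of them higher than primordia and 0 lower, beside 19.9% and 7.53%. At low counts fewer differences can be called, so an uncalled gene in this class was not detectably different at this depth. The counts by level include the 6 genes that entered the test through their stipe reads alone. No count by level was made with the filter set without the stipe, so the shares of the lowest class may hold calls of these genes.

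Stipe replicate 4 tended to give slightly higher values for the set than replicate 1. The median log2 difference of replicate 4 from replicate 1 was 0.16, beside -0.0023 over all genes of the matrix. In replicate 4, 102 of the 159 genes were higher, or 64.2%, beside 49.8% of all genes. The replicates were more than 2-fold apart for 5 genes. Among all genes of the matrix 12.3% were that far apart, but the rule, which demands 2 high values, favours agreement. The widest gap was in gene model 793149, singled out after its values were seen, at 101 RPKM in replicate 1 and 490.3 in replicate 4, with no more than 53.3 RPKM in any other library. Within the other groups the genes of the set varied somewhat more than genes in general. The median level of the set was also lower in these groups. No comparison at a like level was made, so variation is not set apart from level. The median SD of log2 RPKM was 0.50 among mycelium libraries, beside 0.34 for all genes, 0.72 beside 0.61 among primordia, 0.48 beside 0.40 among young fruiting bodies and 0.48 beside 0.37 among caps.

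The stage 1 primordium did not stand apart from the stage 2 primordia in 1 direction. It was more than 2-fold above their mean for 33 of the genes and more than 2-fold below for 34, with a median difference of -0.07 on the log2 scale. Over all genes 16.8% and 17.8% were that far above and below. With 1 stage 1 library there is no test of this difference.

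In length the genes were close to the rest of the matrix. Their median was 1080 bases, with quartiles of 809.5 and 1563, beside 1196 bases with quartiles of 775 and 1773 for all genes. All reads were unique to 1 gene model for 132 genes, and 1 gene had under 90% unique reads, beside 3.29% of all genes of the matrix. That gene, 895114, had 49.8% unique reads, so its level is uncertain.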

How the data were processed

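Each of the 14 libraries has a table of 17139 gene models with columns, per the file headers, of total counts, unique counts, RPKM and TPM; the deposited counts are raw. RPKM values in the text were recomputed from total counts, and the deposited TPM values served only an alternative form of the rule. The authors' matrix of deposited log2 values, used to choose the genes, equals log2 RPKM after TMM scaling with 0.5 reads added, within 1e-06 for 100% of values. It holds the genes with at least 5 reads in at least 4 libraries. The added reads give shallow libraries a higher floor. Per the submitters' processing notes, limma 3.18.13 and edgeR 3.4.2 ran in R 3.0.2, the mapper being not given in the sources used here, nor the build. The TruSeq v2 kit does not mark strand, so reads of antisense partners cannot be told apart.

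Total counts were tested with edgeR 4.0.16 in R 4.3.3 (TMM, filterByExpr, quasi-likelihood test, 1 fit of 14 libraries in 5 groups, 9 residual degrees of freedom). All 15559 genes tested entered the Benjamini-Hochberg adjustment. All 159 genes passed the filter, 6 of them only through the stipe libraries. Standard errors are the log2 change divided by the square root of F. Floors take 3 reads per library for a count of 0 and cover counting error only. The scripts were tested on simulated data.

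Named genes were the 2 of largest lead, the 2 of highest stipe RPKM, the 2 on each side of the threshold and, in 4 of the comparisons, the 2 that rose and the 2 that fell with the smallest adjusted p. The set, its rule and the tests were chosen with earlier results of these data known. Alternatives were other scalings (DESeq2 1.42.0 size factors, library size, length trend removed), filters, tests (DESeq2, limma 3.58.1), fold thresholds, unique reads, fits of fewer libraries, a replicate block and each library left out.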

Additional observations from a re-analysis of the deposited data

Results flagged for a closer look

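In gene models that no comparison used, 3 had at least 5 reads in both stipe libraries and under 5 in each of the 12 other libraries. They lie outside the deposited matrix, which required 5 reads in 4 libraries, so a gene read in the 2 stipe libraries alone could not enter it. Their signal was low. Gene model 804433 had 12 and 15 reads in stipe replicates 1 and 4 and at most 4 in another library. Gene model 690349 had 13 and 6 reads and gene model 806609 had 5 and 6, each with at most 4 elsewhere. Of the 1662 gene models outside the matrix, the same pattern was found for 6 in mycelium, 0 in primordium, 1 in young fruiting body and 8 in cap, where 3 libraries had to agree. None of the 3 stipe models was without reads in all other libraries.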

How the results depend on the processing

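The size of the set depended on its rule: 16 genes remained with a lead of at least 2 and a gap of at least 1, and 49 with a gap of at least 1. With 1 library left out, 152 to 355 genes met the rule, the highest without stipe replicate 1 (150 of them in the set). Without TMM 185 genes met it, 123 of them in the set, and on TPM 183, with 111. Counts of called genes with 1 library left out ran from 47 to 59 (main count 56) between mycelium and primordium, 32 to 45 (40) between primordium and young fruiting body, 5 to 17 (15) between young fruiting body and cap, 30 to 44 (41) between primordium and cap, 39 to 57 (47) between mycelium and young fruiting body and 29 to 42 (36) between mycelium and cap. Fits of only the 2 groups compared gave 34 genes between mycelium and primordium, 24 between primordium and young fruiting body and 22 between primordium and cap. The last were 8.16% higher and 6.80% lower of 147 genes, beside 17.0% and 14.8% of all genes then tested. Library-size scaling gave 61 for primordium to young fruiting body, 7 for young fruiting body to cap and 63 for primordium to cap. For young fruiting body to cap, the 4-fold threshold gave 6, DESeq2 24 and the 12 libraries that are not stipe 9; for mycelium to cap the 4-fold threshold gave 23, fewer by construction. The causes of the other shifts were not tested. Of 200 recomputed counts, 182 were within a factor of 1.5 of the original. Named genes gave 391 recomputed values, of which 384 held both sign and call and the remaining 7 held the sign.

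With the replicate number as a block, on the 12 libraries that are not stipe, 44, 28, 7, 30, 42 and 29 genes were called, in the same order of comparisons. Same-numbered libraries did not deviate together (r across genes -0.13 to 0.05 over 18 pairs, beside -0.11 to 0.18 over 36 pairs of other numbers). For 3 of 12 libraries the closest library of another group bore its number. The labels do not say whether the numbers pair the samples, and a check on so few libraries per group cannot settle it. Depth limits the low genes most, in mycelium and primordium.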

Other observations

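Some genes of the set were without reads in the same libraries. Gene models 466271 and 806369, picked after their values were seen, both had no read in mycelium replicates 2 and 3 and in cap replicate 2, and reads in the 11 other libraries. In RPKM, 466271 stood at 6.82 in mycelium replicate 1, 7.52, 7.47 and 51.7 in young fruiting bodies, 56.5 and 27.9 in cap replicates 1 and 3, and 84.0 and 118 in stipe. Gene model 806369 stood at 3.31, at 3.62, 3.23 and 23.1, at 22.0 and 12.6, and at 42.6 and 58.9 in the same libraries. For both, young fruiting body replicate 3 was far above replicates 1 and 2. All reads of both models were unique, so reads shared with another model do not enter these values.

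A pair of abundant genes, also picked after their values were seen, is given here in some libraries only. None of these is a primordium or young fruiting body library. The first gene was the higher in each, and the rule itself placed both genes highest in stipe. Whether the pair varied together over all libraries was not tested. Gene models 142464 and 142364 stood at 488 and 338 RPKM in stipe replicate 1, 352 and 265 in stipe replicate 4, 50.4 and 39.0 in cap replicate 1, 13.4 and 12.1 in cap replicate 3, and 8.63 and 6.34 in mycelium replicate 3. Their models are 2118 and 2299 bases long, and 100% of the reads of each were unique.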
